A study of Mus musculus with 6 samples.

Results

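The mTOR pathway regulators described here are 9 mouse genes, namely Mtor, Rptor, Rictor, Mlst8, Deptor, Akt1s1, Tsc1, Tsc2 and Rheb, of 21883 protein-coding genes on chromosomes 1 to 19, X and Y. They were chosen by name, with earlier results of these data known. Their c-Myc peaks were those with a summit at most 1000 bp from either annotated end (called end peaks below) or in the gene body. Failing these, the peak nearest to the gene was taken. Chromatin immunoprecipitation followed by sequencing (ChIP-seq) of c-Myc, a basic helix-loop-helix factor that pairs with Max on DNA, was done in the mouse lung cancer lines PB115, PB119 and PB120, with 1 ChIP and 1 input library per line. The labels name the lines and the antibody and give no genotype, treatment or subtype of lung cancer, and peak lists hold no expression values against which cell identity could be checked. With 1 library per line, no difference between lines could be set against a spread between replicates. The intervals below cover the counting error of the ChIP fragments only and leave out that of the input.

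As background, mTOR is a kinase that couples growth signals and nutrients to protein synthesis and cell growth. It works in a first complex, mTORC1, defined by Raptor (Rptor), and in a second, mTORC2, defined by Rictor, and both also hold mLST8 and the inhibitor DEPTOR. The GTPase Rheb switches mTORC1 on, the complex of TSC1 and TSC2 switches Rheb off, and PRAS40 (Akt1s1) restrains mTORC1 from within.

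Of the 9 genes, 8 had an end peak of c-Myc in PB115, where 23.6% of all protein-coding genes had one. In PB119 it was 8 again, against 35.3%, and in PB120 it was 6, against 16.4%. The 6 genes with an end peak in every line were Mtor, Rptor, Akt1s1, Tsc1, Tsc2 and Rheb, where 14.4% of protein-coding genes had one in every line. Mlst8 and Deptor lacked one in PB120 alone, the shortest list, and with 5168 peaks taken from each list the counts were 6, 5 and 6, beside 17%, 18.2% and 16.4% of protein-coding genes. Rictor had none in any line. Of all 5115 protein-coding genes with end peaks in both PB115 and PB119, 61.6% also had one in PB120, compared with 6 of 8 here. The authors' fold enrichment (ChIP over local input at the summit, with 1 added to both) was moderate at these genes. For the strongest end peak of each member, the median was 8.45 for PB115, 10.7 for PB119 and 8.89 for PB120, beside 10.4, 11.6 and 9.23 over all protein-coding genes with an end peak in those lists. The ranges were 6.24 to 13.0, 7.24 to 24.5 and 8.35 to 19.7.

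**Figure D1:**
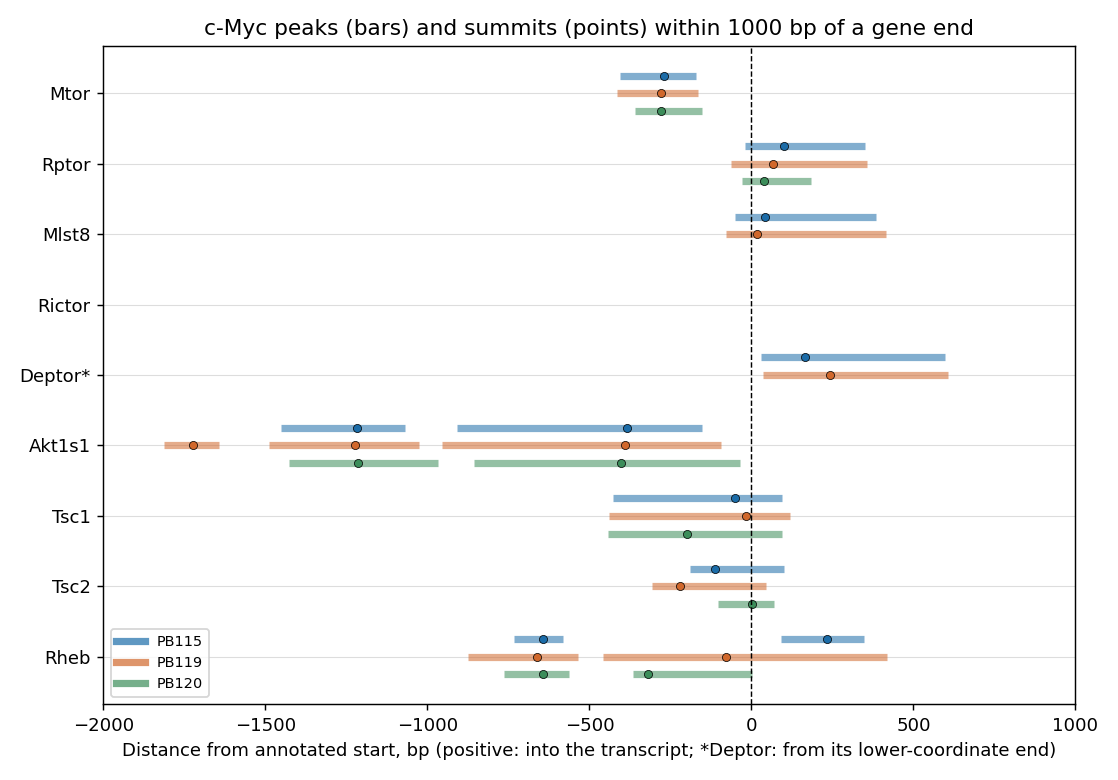
Position of each end peak of c-Myc (bar) and its summit (point) at the 9 genes, in bp along the direction of transcription, coloured by line. Distances are from the start given by the RefSeq promoter table, and for Deptor from its lower-coordinate end. Peaks farther inside genes are not drawn. Mtor, Rptor and Akt1s1 have summits at nearly the same place in all 3 lines, Rheb has a pair of peaks in each line, and Rictor has none.

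Mtor encodes the kinase itself and lies at 148448582 to 148557685 on chromosome 4 (mm10). Its peak was upstream of the start, with summits 271, 278 and 279 bp before it (PB115, PB119, PB120). The fold was 12.9 in PB115 from 72 fragments, 16.1 in PB119 from 85 fragments and 8.46 in PB120 from 51 fragments. The summits thus lay within 8 bp of each other, and the fold was highest in PB119 and lowest in PB120. The peak stood at the 76.5th percentile of all folds in the PB115 list, the 82.7th in PB119 and the 42.8th in PB120. Local input, here the peak caller's background for the summit as recovered from the fold, was 1.87, 2.02 and 2.77 times the genome-wide level in the same order. The PB120 summit had the fewest fragments and the highest input relative to the genome-wide level, and the part of each in its lower fold was not tested. The genome-wide level itself was only 1.61, 1.98 and 1.44 input fragments per position in PB115, PB119 and PB120. Such multiples, here and at the genes below, thus rest on few input fragments and carry no interval. Exact Poisson 95% intervals for the ChIP fragments were carried to the fold with the input taken as exact. They ran from 10.1 to 16.1 in PB115, 12.9 to 19.8 in PB119 and 6.35 to 11.1 in PB120, and those of PB119 and PB120 did not overlap. Per 1000000 ChIP tags the fragments were 1.78 in PB115, 2.09 in PB119 and 1.58 in PB120. Their Poisson intervals (1.39 to 2.24, 1.67 to 2.58 and 1.18 to 2.08) overlapped in all pairs. The separation of the PB119 and PB120 folds thus appeared only after division by local input, whose counting error was left out. PB119 also listed a weaker peak inside the gene, 7228 bp from the start, with a fold of 7.47 from 39 fragments, which no peak of another line overlapped. At the far end of the gene, summits of PB115 and PB119 lay just outside the window, 1067 and 1054 bp beyond it, with folds of 11.7 and 17.6, and were within 1000 bp of Exosc10.

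The 250 bases before the annotated Mtor start (GRCm38.p6, RefSeq, plus strand, chr4:148448332-148448581) are shown because the peaks of all 3 lines reached into them. The window of 300 bases (250 before to 50 after the start) held none of the motifs searched on both strands, which were the E-box CACGTG and its variants CACGCG and CATGTG, nor any CANNTG, the general E-box form that includes CACGTG and CATGTG. The summits themselves lay 21, 28 and 29 bp upstream of its first base in PB115, PB119 and PB120.
Mtor: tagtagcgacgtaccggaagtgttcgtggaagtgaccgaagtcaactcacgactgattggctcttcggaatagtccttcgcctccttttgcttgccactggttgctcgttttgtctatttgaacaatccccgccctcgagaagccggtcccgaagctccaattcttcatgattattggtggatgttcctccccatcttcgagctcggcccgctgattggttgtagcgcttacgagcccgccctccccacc

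Rptor, the gene of the mTORC1 scaffold that brings substrates to the kinase, lies at 119602905 to 119899591 on chromosome 11. Its peaks sat on the start, with summits 102, 68 and 38 bp inside the gene in PB115, PB119 and PB120. The fold was 13.0 from 69 fragments in PB115, 10.1 from 86 fragments in PB119 and 10.5 from 41 fragments in PB120. The PB119 summit thus held the most fragments and had the lowest fold. Local input there was 3.53 times the genome-wide level, against 1.74 in PB115 and 1.57 in PB120. By fragments it stood at the 89.8th percentile of the PB119 list, and by fold at the 53.2nd. The intervals of the fold (10.2 to 16.4, 8.14 to 12.5 and 7.60 to 14.1) overlapped in all pairs. A further PB119 peak inside the gene, 260724 bp past the start, had a fold of 6.96 and 37 fragments, and no peak of another line overlapped it.

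Akt1s1 encodes PRAS40, an inhibitory component of mTORC1 and a substrate of Akt, and lies at 44849224 to 44855421 on chromosome 7. It carried the most fragments of the 9 genes in every line, 121 in PB115, 125 in PB119 and 96 in PB120. Scaled to ChIP depth these were 2.99, 3.07 and 2.97 fragments per 1000000 tags, with Poisson intervals of 2.48 to 3.57, 2.55 to 3.66 and 2.41 to 3.63 that overlapped almost fully. The fold nevertheless was 12.3 in PB115 against 24.5 in PB119 and 19.7 in PB120, while local input was 3.73, 1.92 and 2.08 times the genome-wide level. The part of input in these folds, and in that of Rptor in PB119, was not tested. Its fold ranked 2110th of 7830 peaks in PB115, 657th of 13527 in PB119 and 138th of 5168 in PB120. The summits lay 383, 391 and 403 bp before the start given by the RefSeq promoter table, which is inside the annotated gene, and 765, 757 and 745 bp from the gene's nearest end. A second peak, nearer the end, had folds of 8.91, 10.1 and 11.8 with summits 70, 77 and 65 bp outside the gene. PB119 listed one more, farther out, with a fold of 8.55. All of these summits were also within 1000 bp of Tbc1d17, whose nearest end was 910, 902 and 890 bp from the strongest summit in PB115, PB119 and PB120. Tbc1d17 ends at 44849079, so the summits of the second peak lay in the gap between the 2 genes. The farther PB119 summit, at 44848648, lay inside Tbc1d17. The strongest and the second summits were in each line also within 1000 bp of the noncoding gene Mir707. Which gene the weaker peaks belong to cannot be told apart by position. The strongest lay inside Akt1s1, which by itself does not assign it to that gene.

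**Figure D2:**
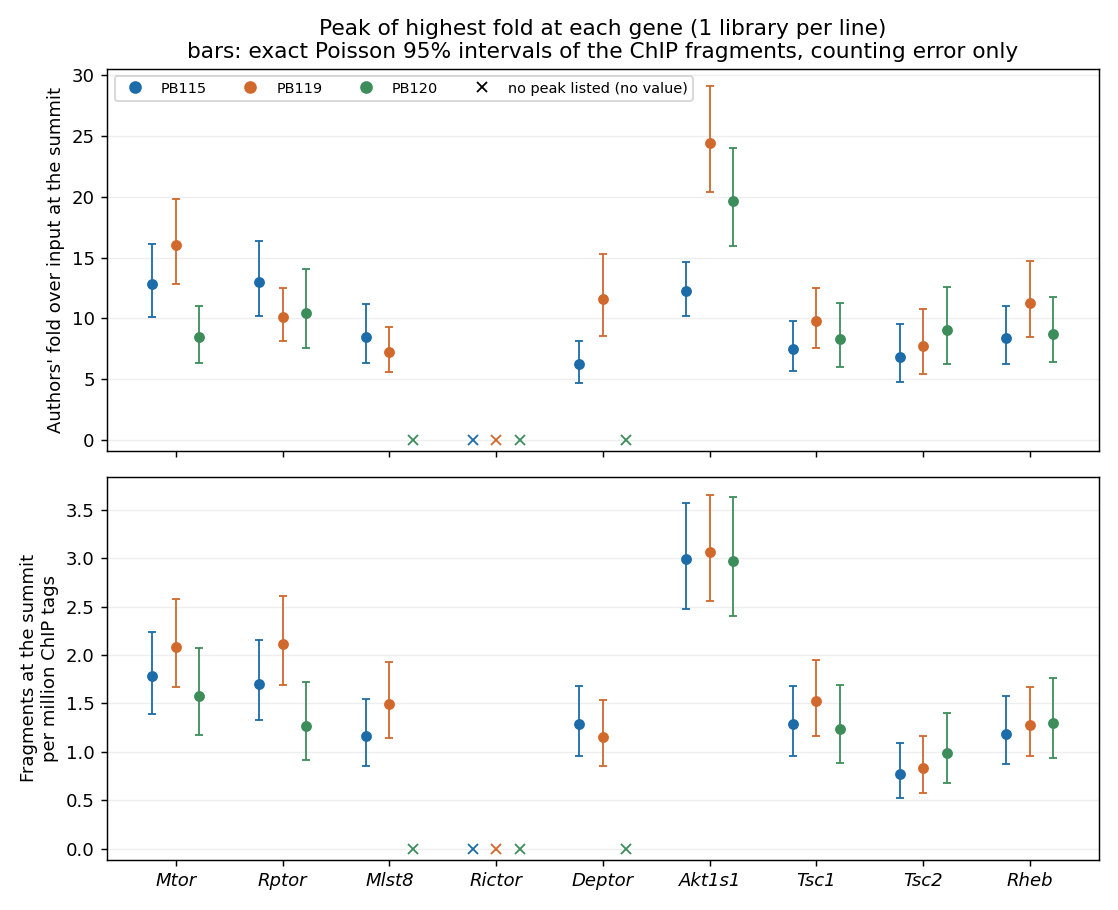
Authors' fold over input (top) and ChIP fragments per 1000000 ChIP tags (bottom) at the peak of highest fold of each gene, by line; points are single libraries, bars are exact Poisson 95% intervals of the ChIP fragments only, and crosses mark genes with no listed peak. Akt1s1 is at 2.97 to 3.07 fragments per 1000000 tags in all lines although its fold ranges from 12.3 to 24.5.

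Mlst8, a subunit of both complexes, lies at 24473550 to 24479114 on chromosome 17 and had summits 78 and 53 bp inside its higher-coordinate end in PB115 and PB119, which is 42 and 17 bp past the start given by the promoter table. The fold was 8.48 from 47 fragments in PB115 and 7.24 from 61 fragments in PB119, where local input was 1.87 and 3.53 times the genome-wide level. In PB120 the nearest listed summit was 18214 bp away and within 1000 bp of E4f1. Deptor, the gene of an inhibitor of both complexes, lies at 55112317 to 55259273 on chromosome 15. Its summits were 165 and 241 bp inside the lower-coordinate end, with a fold of 6.24 from 52 fragments in PB115 and 11.6 from 47 fragments in PB119. The fragments were nearly equal, and local input was 3.11 times the genome-wide level in PB115 and 1.45 times in PB119. In PB120 the nearest listed peak was 2774650 bp away. The weakest summit listed for PB120 held 21 fragments, so weaker occupancy of Mlst8 or Deptor was not detectable there at the authors' cutoff, and a missing peak does not show that c-Myc was absent.

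Rictor, which defines mTORC2, lies at 6708349 to 6800401 on chromosome 15 and had neither an end peak nor a peak in its body in any list. The nearest summit was 134302, 134231 and 1205251 bp away for PB115, PB119 and PB120. Its promoter is shown for contrast with those of genes that had peaks: the 218 bases of its window outside the annotated gene (GRCm38.p6, RefSeq, plus strand, chr15:6708131-6708348) hold none of the motifs searched, as at Mtor.
Rictor: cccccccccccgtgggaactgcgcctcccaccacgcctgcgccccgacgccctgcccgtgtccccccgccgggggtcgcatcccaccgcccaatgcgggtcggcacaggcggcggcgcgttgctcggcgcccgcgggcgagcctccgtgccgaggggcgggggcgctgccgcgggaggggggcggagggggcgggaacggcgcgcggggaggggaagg

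**Figure D3:**
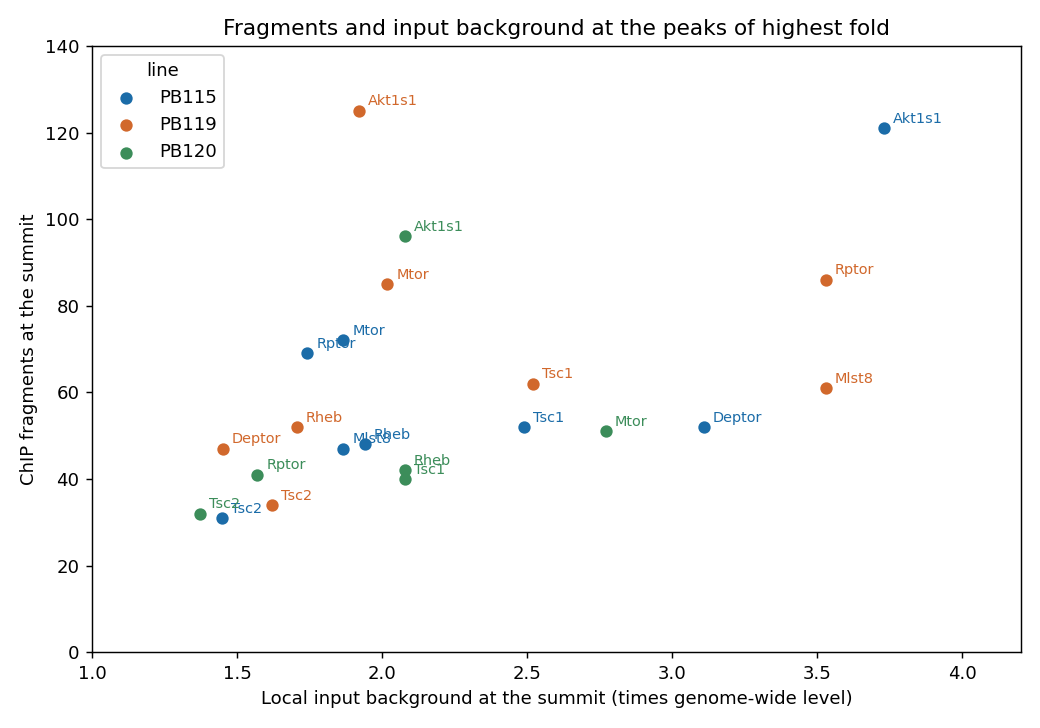
ChIP fragments at the summit against local input background, in multiples of the genome-wide input level, for the peak of highest fold of each gene in each line. Akt1s1 in PB115 (3.73), Rptor in PB119 (3.53), Mlst8 in PB119 (3.53) and Deptor in PB115 (3.11) lie at the high-input side, and Akt1s1 has the most fragments in every line.

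Tsc1 and Tsc2 encode the partners of the complex that inactivates Rheb. Tsc1 lies at 28640993 to 28691172 on chromosome 2, and its peaks of 521, 559 and 539 bp in PB115, PB119 and PB120 covered nearly the same bases. The fold was 7.49 from 52 fragments, 9.80 from 62 fragments and 8.35 from 40 fragments, and the intervals (5.64 to 9.76, 7.55 to 12.5 and 6.04 to 11.3) overlapped. The summits lay 52, 18 and 200 bp before the start of the promoter table. Tsc2, at 24595816 to 24632676 on chromosome 17, had the fewest fragments when each gene was taken at its peak of highest fold, 31 in PB115, 34 in PB119 and 32 in PB120, with folds of 6.83, 7.76 and 9.03. Intervals of the fold overlapped here too (4.74 to 9.57, 5.45 to 10.7 and 6.28 to 12.6). The end of Tsc2 and that of Nthl1, a DNA glycosylase gene read in the opposite direction from 24632680, are almost in contact. The summit was nearer to Nthl1 than to Tsc2 in PB115 (60 against 64 bp) and PB119 (168 against 172 bp) and nearer to Tsc2 in PB120 (50 against 54 bp). Which gene the peak belongs to cannot be told apart by position.

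A single CACGCG lay in the Tsc2 window, its first base 65 bases before the start given by the promoter table, which lies inside the annotated gene. The listed peak covered it in all 3 lines, at 50, 158 and 63 bp from the summits of PB115, PB119 and PB120. That copy, at 24632687 to 24632692, lay outside annotated Tsc2 and inside annotated Nthl1, so it cannot be assigned to Tsc2 by position. This motif, on either strand, occurred in 12.1% of 21262 promoter windows of protein-coding genes and in 27.1% of the 3264 windows of genes with an end peak in all 3 lines. The 30 bases around it (GRCm38.p6, RefSeq, minus strand, chr17:24632675-24632704) are given with the motif in capitals. A CATGTG lay in the Akt1s1 window 193 bases before the promoter-table start, covered by the strongest peak of each line at 192 to 212 bp from the summit, and it occurred in 11.5% and 7.75% of the same sets of windows (plus strand, chr7:44850167-44850196).
Tsc2: ttgctcaacgcgCACGCGaaactacaattc
Akt1s1: cacgctcaacccCATGTGtctgactcgcga

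Rheb, the GTPase that activates mTORC1, lies at 24802823 to 24842361 on chromosome 5 and is read from its higher-coordinate end. It had a pair of peaks in every line. The outer summit was at almost the same place in all, 643, 663 and 642 bp before the start in the order PB115, PB119, PB120, with folds of 7.61, 10.9 and 8.75 from 42, 50 and 42 fragments. The inner summit lay at a different place in each list. It was 232 bp past the start in PB115 (fold 8.41 from 48 fragments), 80 bp before it in PB119 (11.3 from 52 fragments) and 319 bp before it in PB120 (6.82 from 29 fragments). The inner PB119 peak was 876 bp long and overlapped inner peaks of both other lines, which did not overlap each other. Whether the inner peaks are the same site was not tested. At least 2 end peaks were listed for 3.5%, 7.65% and 1.38% of protein-coding genes in PB115, PB119 and PB120, and among the 9 genes for Rheb and Akt1s1 in each line.

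The Rheb window held the one CACGTG found among the 8 members with a promoter sequence. This motif occurred in 7.84% of protein-coding windows and in 16.4% of the 3264 windows of genes with an end peak in all 3 lines. Its first base lay 96 bases before the start, at 24842452 to 24842457 on chromosome 5, which is 13 bp from the PB119 summit. The inner PB120 peak also covered it, 225 bp from its summit, and neither PB115 peak did. The 250 bases before the start (GRCm38.p6, RefSeq, minus strand, chr5:24842362-24842611) are shown with the E-box in capitals.
Rheb: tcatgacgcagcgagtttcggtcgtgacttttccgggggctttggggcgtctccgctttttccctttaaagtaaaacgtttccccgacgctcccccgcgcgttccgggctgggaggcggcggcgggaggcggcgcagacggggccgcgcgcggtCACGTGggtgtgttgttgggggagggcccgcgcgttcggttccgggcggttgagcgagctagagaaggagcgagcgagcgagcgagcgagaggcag

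All 8 promoter windows had more CpG than the median protein-coding window. The observed over expected CpG ratio ran from 0.762 at Mlst8 to 1.30 at Rheb, beside a median of 0.567 over protein-coding windows and 0.848 over those of genes with an end peak in all 3 lines. Rictor, without a peak, was at 1.02 and Rptor, with a peak in every line, also at 1.02. GC content varied more, from 41.7% at Rptor to 78.3% at Rictor, against a median of 56.3%.

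By fold, the order of the members differed between lists. In PB115 Rptor (13.0), Mtor (12.9) and Akt1s1 (12.3) led and their intervals overlapped. In PB119 Akt1s1 (24.5, interval 20.4 to 29.1) stood above Mtor (16.1, 12.9 to 19.8) beyond the counting error of the ChIP fragments. In PB120 Akt1s1 (19.7, 16.0 to 24.0) likewise stood above Rptor (10.5, 7.60 to 14.1). Counting error of the input was left out of these intervals. The other neighbours in each order had overlapping intervals. Akt1s1 had the highest median percentile, at 73.1 in PB115, 95.1 in PB119 and 97.3 in PB120. Among 3150 other genes with an end peak in all 3 lines, the nearest in these 3 percentiles were Aasdh (70.9, 96.7 and 94.1), Lsm11 (73.5, 90.6 and 95), which encodes a protein of the U7 particle of histone mRNA processing, and Tpt1 (75.2, 92.2 and 93.0). The likeness rests on 3 libraries.

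Beyond these 9 genes, 69 genes that work with, above or below mTOR were examined. End peaks were found at 30 (43.5%), 45 (65.2%) and 27 (39.1%) of them in PB115, PB119 and PB120, with 24 in every line and 23 in none, beside the 23.6%, 35.3% and 16.4% of all protein-coding genes. With summits anywhere in the gene body counted too, the numbers were 38, 54 and 29, and 27 in every line, beside 28.8%, 42.2%, 20.1% and 17.5% of protein-coding genes. Those counts of the 9 members stayed at 8, 8, 6 and 6. Among partners of TSC and Rheb, both genes had an end peak in every line. Tbc1d7, the further subunit of the TSC complex, had folds of 11.1, 25.6 and 18.6, given here and below in the order PB115, PB119, PB120. Rhebl1, a Rheb relative, had 11.3, 19.4 and 7.74 at a summit shared with Dhh.

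Of 6 genes for complex partners and assembly, 2, 3 and 2 had an end peak (33.3%, 50% and 33.3%). The share of all protein-coding genes was 23.6%, 35.3% and 16.4%, for this and the next lists. Telo2, whose product helps to assemble mTOR and related kinases, had folds of 24.2, 35.8 and 14.6, and its partner Tti2 had 7.75, 11.8 and 8.81. Mapkap1, Prr5 and Prr5l, which encode mTORC2 proteins, had no end peak in any of them, and Prr5l had a summit in its body in PB115 and PB119. The Rag GTPases and Ragulator bring mTORC1 to the lysosome. Of 10 genes in their list, which also holds Slc38a9, 5, 7 and 4 had an end peak (50%, 70% and 40%). Lamtor2 had folds of 10.3, 30.7 and 17.5 at a summit shared with Ubqln4, Rragc had 13.3, 21.2 and 9.63, and Rragd had 6.86, 9.58 and 9.89. Rragb, Lamtor4 and Slc38a9 had no end peak, although Rragb (PB115 and PB119) and Slc38a9 (PB119) had a summit in the gene body.

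Of 10 GATOR and KICSTOR genes, whose products relay amino acid shortage to the Rag GTPases, 3, 6 and 1 had an end peak. These shares were 30%, 60% and 10%, beside 23.6%, 35.3% and 16.4% of protein-coding genes. The PB120 share rests on 1 gene and cannot be told apart from that of all genes. Itfg2 alone had an end peak in every line (17.3, 20.9 and 8.62). Wdr24, Wdr59 and Kptn were among the 4 without an end peak. Of 8 amino acid sensor and folliculin genes, 4, 5 and 3 had an end peak (50%, 62.5% and 37.5%). Fnip2, a folliculin partner, had folds of 20.4, 32.0 and 6.97, Flcn had 10.4, 14.7 and 7.47, and the arginine sensor gene Castor1 had 8.83, 7.94 and 10.9. Sesn2, Sesn3 and Castor2 had no end peak.

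Upstream, 7, 12 and 7 of 18 signalling genes had an end peak (38.9%, 66.7% and 38.9%), beside 23.6%, 35.3% and 16.4% of protein-coding genes. Pdpk1, the kinase that activates Akt, had folds of 14.3, 20.4 and 13.6 at a summit shared with Kctd5. Stk11, the kinase that activates AMPK, had 13.0, 18.6 and 9.51. Pik3r1 and Prkaa1 were among 6 without an end peak. Downstream, 7, 10 and 8 of 15 substrate and effector genes had an end peak (46.7%, 66.7% and 53.3%). Lpin1, a regulator of lipid synthesis, had folds of 20.9, 30.6 and 8.35 at a summit shared with Ntsr2, Eef2k, the kinase of elongation factor eEF2, had 18.6, 22.2 and 11.9, and Rps6kb1, the gene of S6 kinase, had 16.4, 20.5 and 6.62 at a summit shared with Tubd1. Tfe3, Pdcd4 and Sgk1 were among 4 without an end peak, and Pdcd4 and Sgk1 had a summit in the gene body in PB115 and PB119.

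**Figure D4:**
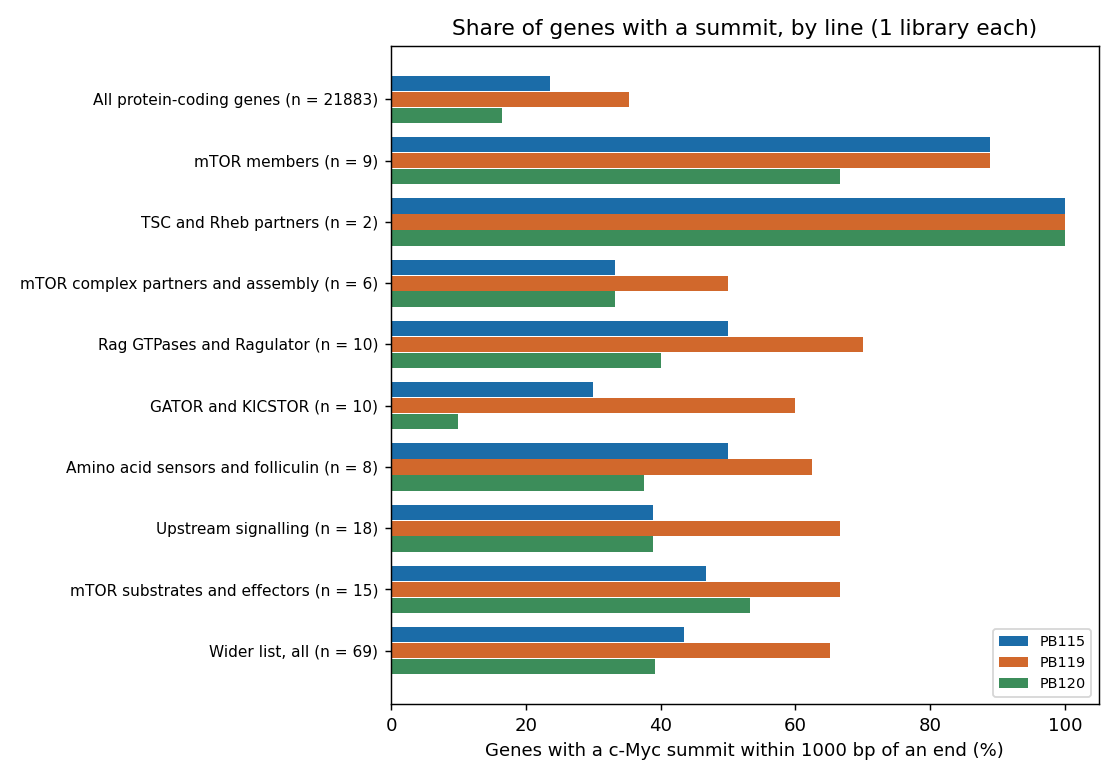
Share of genes with an end peak of c-Myc, in percent, for all protein-coding genes, the 9 mTOR pathway members and the wider lists, by line. The members are at 88.9%, 88.9% and 66.7% in PB115, PB119 and PB120, and the 69 wider genes at 43.5%, 65.2% and 39.1%, where all protein-coding genes are at 23.6%, 35.3% and 16.4%.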

How the data were processed

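Peak lists of 3 c-Myc ChIP-seq libraries were used, 1 each from PB115, PB119 and PB120, grouped by sample title, and the inputs entered only through peak calling. Per the file headers, MACS 2.1.0.20140616 called peaks in each library against its own input, at a p cutoff of 1e-10, with ChIP scaled to input depth and local background over 1000 and 10000 bp. The submitters' processing notes name Bowtie, SAMtools and mm10. Depth after filtering was 40494386, 40726886 and 32299364 ChIP tags and 28380432, 37979638 and 26156520 input tags for PB115, PB119 and PB120.

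The deposited pileup is a signal, the scaled ChIP coverage at the summit. Undoing the scaling with the tag numbers recovered whole fragments (within 0.02) at 100% of peaks. The deposited fold is a ratio from which local input was recovered. That value is the peak caller's local background, not the input coverage at the summit, and is not independent of the fold. The genome-wide level of input was input tags times fragment length over the effective genome size. The deposited −log10 p-value filtered and ranked peaks in the alternatives, and the deposited −log10 q-value was not printed. A summit is the highest point of a peak, so its fragment count is biased upward. Its exact Poisson interval (SciPy 1.17.1) covers counting error of the ChIP fragments only, with the input taken as exact.

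Gene ends and promoter starts came from RefSeq (GRCm38.p6, the assembly of mm10), where all 9 members matched by symbol and 8 had a promoter window, Deptor being without one. Coordinates are 1-based. A gene was given its peak of highest fold within 1000 bp of an end, and this assignment was tested on simulated summits. No test between lines or of gene lists was run. Named genes were all members, in each wider list up to 3 genes with the highest median percentile and up to 3 without a summit, neighbours that share a summit, and the 3 genes nearest to the leading member. Wider-list genes on chromosome 18 were not analysed here, and some wider-list genes that the rule would name are not reported here. Members and lists were chosen with earlier results of these data known. Alternatives changed the window, cutoffs, list length, gene assignment, overlap rule and the peak chosen.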

Additional observations from a re-analysis of the deposited data

How the results depend on the processing

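Without replicates, depth and cutoff set what could be listed, and the counts depend on them. Among alternatives for the members' counts, 26 of 31 stayed within 1.5 times the count reported, for the wider list 22 of 28, and for overlaps between lines 3 of 3. Some of these counts could hardly move. With 5168 peaks per list the PB120 counts could not change, since that is its whole list. A wider window or counting gene bodies could only raise counts, and those of the members could not exceed 9. For single folds 41 of 44 stayed within the counting interval, but most of these could not change. Only Akt1s1 and Rheb had more than 1 end peak in a line to choose from, and the folds that moved were all of Akt1s1. With a fold of at least 10 required, the members with a summit numbered 3 in PB115, 5 in PB119, 2 in PB120 and 2 in every line (Rptor and Akt1s1), beside 12.7%, 22.2%, 6.46% and 4.85% of protein-coding genes, and the wider list numbered 17, 28, 9 and 6. With as many peaks per list as the shortest holds (5168), the members numbered 6, 5 and 6 in PB115, PB119 and PB120, beside 17%, 18.2% and 16.4% of protein-coding genes. Deptor and Tsc2 then had no end peak in PB115, nor did they or Mlst8 in PB119, so the lower count of PB120 did not hold at equal list length. The wider list numbered 24 in PB119. A p cutoff of 1e-20 left 14 wider-list genes in every line (20.3%), beside 9.35% of protein-coding genes. Taking the Akt1s1 peak nearest to an end gave 8.91 (PB115), 10.1 (PB119) and 11.8 (PB120) as its fold. Counting a summit only for the nearest coding gene removed Tsc2 in PB115 and PB119. No paired analysis was possible because the result comes from no test and each line has 1 ChIP library.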

Other observations

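When the subunits were grouped by complex, a grouping made after the values were seen, none of the 4 genes specific to mTORC2 (Rictor, Mapkap1, Prr5 and Prr5l) had an end peak in any list. Both genes specific to mTORC1 (Rptor and Akt1s1) and all 3 of the TSC complex (Tsc1, Tsc2 and Tbc1d7) had one in every line, beside 14.4% of protein-coding genes. The Tsc2 peak cannot be told apart from one of Nthl1. Tsc2 had none in PB115 and PB119 when only the nearest coding gene was counted, or at equal list length. Of the 3 genes shared by both complexes (Mtor, Mlst8 and Deptor), 3, 3 and 1 had one in PB115, PB119 and PB120. Summits inside a gene added 1 mTORC2 gene, Prr5l, in PB115 and PB119. With 4 genes and 35.3% of all protein-coding genes carrying a summit in the longest list, this is a description of 3 libraries.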
